A study of Mus musculus with 12 samples.

Results

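The constitutive proteasome genes are the 34 genes Psma1 to Psma7, Psmb1 to Psmb7, Psmc1 to Psmc6 and Psmd1 to Psmd14, which encode the subunits of the proteasome and the chaperones that assemble its base. They are defined by gene symbol. Each of the 34 has a row among the 23997 genes of every deposited table, and all 34 passed the filter on low values that left 10581 genes to test. The study measured RNA by RNA-seq in bone marrow-derived macrophages (BMDMs), which are macrophages grown from marrow in culture, to examine what loss of the serine/threonine kinase Pim1 does to the response to LPS, the bacterial lipopolysaccharide sensed by TLR4. All groups were male mice of the C57BL/6 strain at 8 to 10 weeks of age, and their marrow was grown for 7 d in M-CSF at 10 ng/ml. The 4 groups were WT untreated, WT given LPS at 100 ng/ml for 4 h, Pim1-/- untreated and Pim1-/- given the same LPS treatment, with 3 libraries in each and 12 in all. The Pim1-/- mice carry a deletion of exons I to V of Pim1 made with CRISPR/Cas9, and the Pim1-/- macrophages were grown from the marrow of these mice. The sources used here do not tie a library to a mouse or culture, and p-values therefore measure only the spread between these libraries, which may be technical.

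The proteasome degrades proteins that carry ubiquitin. Its core is a barrel in which outer rings of alpha subunits gate the channel and inner rings of beta subunits hold the proteolytic sites, and its cap has a base, whose ring of ATPases unfolds the substrate, and a lid, which removes the ubiquitin. In macrophages, inducible subunits can take the place of the catalytic beta subunits in newly built cores, and the resulting immunoproteasome supplies peptides for MHC class I.

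Expression is given in FPKM, fragments per kilobase of transcript scaled for the size of the library, which allows levels of different genes to be compared per length. Most values of low genes fell on whole multiples of the value of 1 fragment, which put the divisor of this scale between 20600000 and 45700000 fragments per library, and the lowest value of any of the 34 genes rested on about 190 fragments per kilobase. Differences are log2 fold changes on the log2(FPKM + 1) scale from limma with Benjamini-Hochberg adjustment over all 10581 genes, and a gene was called at an adjusted p (FDR) under 0.05. The study's own rule adds a change of more than 2-fold. FPKM sums ran from 452511 to 849323 per library and were higher after LPS, so directions were checked with the values as deposited, after median-ratio scaling, after scaling all libraries to the same FPKM sum and after quantile normalization. The median log2 fold change of all genes was near 0 as deposited and with median-ratio scaling, while scaling to a sum put it at −0.71 for LPS in WT and −0.62 for LPS in Pim1-/- cells, and quantile normalization put it at −0.18 in both. Scaling to a sum also put it at 0.13 between genotypes after LPS and 0.12 for the difference in response. Shares of all genes called are given for the values as deposited only, so counts under the other scalings have no such share beside them. The 10 macrophage markers, among them Csf1r, Emr1 and Cd68, were expressed in every group, with Lyz2 the highest. Lists of markers for B cells, dendritic cells, erythroid cells, T and NK cells, stromal cells, neutrophils and mast cells each summed to at most 10.2 FPKM in any library. Pim1 was at 22.9 ± 1.80 FPKM in untreated WT and 8.73 ± 0.752 FPKM in untreated Pim1-/- cells, and at 645 ± 17.8 and 219 ± 15.6 FPKM after LPS (SD, n = 3 each), log2 fold changes of −1.30 and −1.56.

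The 34 genes were abundant in all 4 groups, and their levels spread widely around a median subunit that stood at 57.9 FPKM in untreated WT, 74.7 FPKM in untreated Pim1-/-, 103 FPKM in LPS-treated WT and 108 FPKM in LPS-treated Pim1-/- cells. Together they made up 0.460% to 0.473% of the FPKM sum of the untreated WT libraries and 0.666% to 0.693% of the untreated Pim1-/- libraries. After LPS their share was 0.612% to 0.624% in WT and 0.734% to 0.766% in Pim1-/- cells. A common factor for all genes of a library does not change this share, and no group overlapped another in it. Among untreated cells Psmd8, a scaffold subunit of the lid, had the highest level in both genotypes, followed by Psmb6, which carries the caspase-like activity. After LPS the order changed. Psma6 of the alpha ring was highest in WT at 666 ± 25.4 FPKM (SD, n = 3), and Psmb6 in Pim1-/- cells at 694 ± 49.9 FPKM (SD, n = 3). Psmd9, a chaperone of base assembly, was lowest in every group at 8.72 to 10.9 FPKM on average. Between neighbours in the order of levels the 3 values overlapped for 16 of 33 pairs in untreated WT, 24 in untreated Pim1-/-, 13 in LPS-treated WT and 20 in LPS-treated Pim1-/- cells, so much of the order in between is not resolved. Libraries of a group lay close together, with a median coefficient of variation over the 34 genes of 2.29% in LPS-treated WT and at most 5.22% in the other groups.

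**Figure D1:**
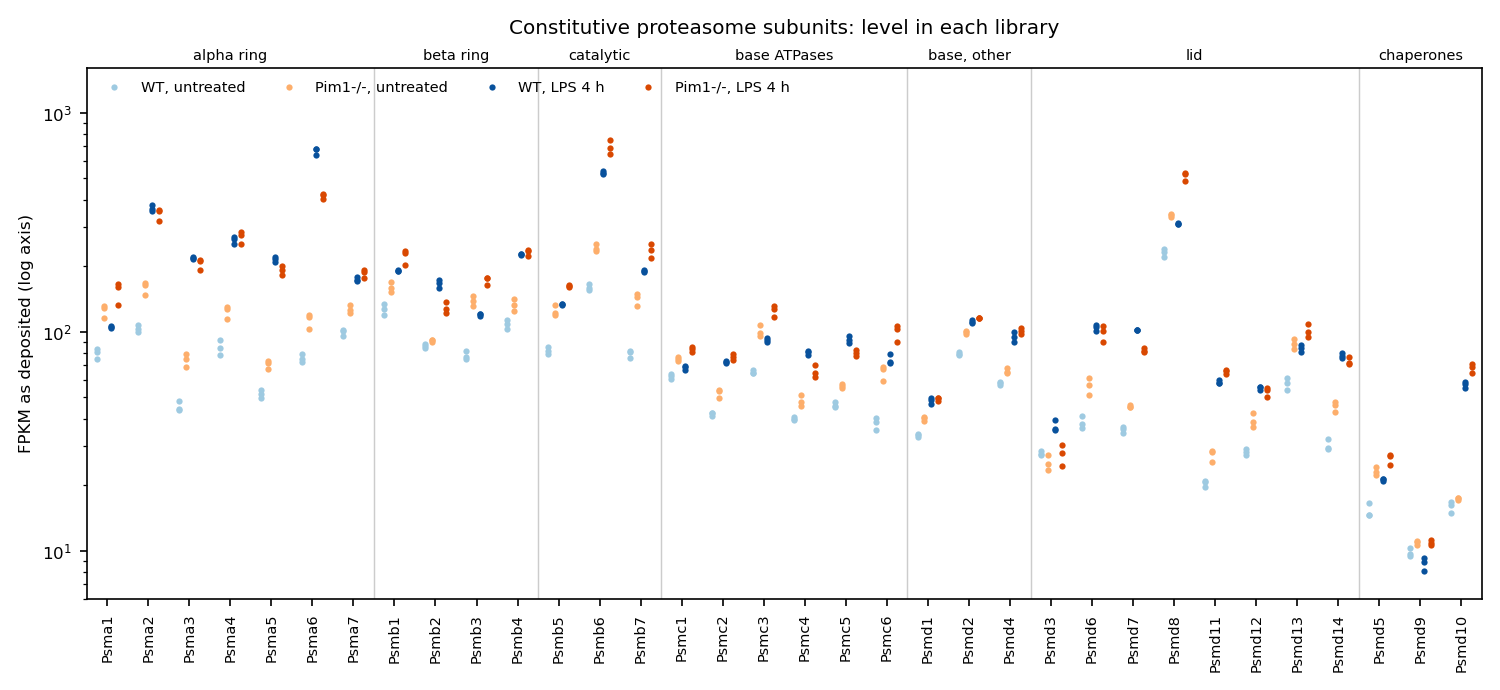
Level of each of the 34 genes in each library, in FPKM as deposited on a log axis, grouped by role along the x axis; every point is 1 library and the colours mark the 4 groups. Psma6 stands out in LPS-treated WT cells at 637 to 683 FPKM, and the points of a group lie close together.

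To see how the constitutive subunits respond to LPS, LPS-treated WT cells were compared with untreated WT cells. As deposited, the values of 33 of the 34 genes rose and 1 fell, where 44.9% of all tested genes rose and 44.5% fell. With all libraries scaled to the same sum only 18 rose and 14 fell, while the median of all genes was −0.71. With quantile normalization 15 rose and 16 fell, with the median of all genes at −0.18. The genes that rose under all 4 scalings were 15, namely Psma2, Psma3, Psma4, Psma5 and Psma6 of the alpha ring, the catalytic Psmb6 and Psmb7, the ATPases Psmc4 and Psmc5, Psmd6, Psmd7, Psmd11, Psmd12 and Psmd14 of the lid, and the chaperone Psmd10. Under the study's rule 13 were higher and 0 lower, against 20.1% and 14.7% of all genes. The median log2 fold change of the 34 was 0.94, which is 0.94 above the median of all genes, 0.86 above it after scaling to a sum and 0.19 above it after quantile normalization. By role, the median was 1.82 in the alpha ring, 1.25 in the catalytic beta subunits, 1.14 in the lid, 0.86 in the ATPases, 0.78 in the other beta subunits, 0.51 in the remaining base subunits and 0.45 in the base chaperones. The 3 values of untreated and LPS-treated WT cells did not overlap for any of the 34 genes, which held for 90.4% of all genes.

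Psma6, a subunit of the alpha ring that gates the core, moved most. Psma6 was at 75.3, 79.0 and 72.2 FPKM in untreated WT, 678, 683 and 637 FPKM in LPS-treated WT, 119, 117 and 103 FPKM in untreated Pim1-/- and 424, 419 and 402 FPKM in LPS-treated Pim1-/- cells. The 4 groups did not overlap, and the highest level of all was in LPS-treated WT cells. In WT the mean rose 8.82-fold (log2 fold change 3.12, standard error 0.06, adjusted p = 2.2e-17), rank 447 of the 10581 genes, and it still rose by 2.32 after scaling to a sum and 2.04 after quantile normalization. Psma3 and Psma5 of the same ring followed. Psma3 was at 44.0, 47.9 and 44.3 FPKM in untreated WT, 217, 219.9 and 213 FPKM in LPS-treated WT, 78.8, 75.1 and 69.1 FPKM in untreated Pim1-/- and 211, 213 and 192 FPKM in LPS-treated Pim1-/- cells. In WT the 3 treated libraries lay far above the 3 untreated ones (log2 fold change 2.23, standard error 0.05, adjusted p = 1.1e-15). Psma5 was at 51.9, 53.9 and 49.9 FPKM in untreated WT, 219, 215 and 208 FPKM in LPS-treated WT, 73.7, 71.8 and 67.6 FPKM in untreated Pim1-/- and 199, 191 and 181 FPKM in LPS-treated Pim1-/- cells. Its rise in WT (log2 fold change 2.02, standard error 0.05, adjusted p = 7.7e-16) was again far beyond the spread of the libraries. Not every member of the ring took part to this extent. Psma1 went from 79.7 ± 4.30 to 105 ± 1.02 FPKM in WT (SD, n = 3 each, log2 fold change 0.39, but −0.41 after scaling to a sum), while Psma2 rose by 1.82, Psma4 by 1.62 and Psma7 by 0.80 on the log2 scale, that of Psma7 turning to −0.29 after quantile normalization.

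With LPS as deposited, Psma6, Psma3, Psmb6 and Psmd10 were among the genes that rose most in 1 or both genotypes. Psmc1 had the smallest rise in WT, and −0.68 there after scaling to a sum. RefSeq promoter sequences of GRCm38.p6 cover 28 of the 34 genes, and those of these 5 genes are shown, without that of Psmd9, which fell in WT. Each is the part of the 250 bases before the annotated start that lies outside annotated exons, 5′ to 3′ on the strand of the gene, and capitals mark matches to CCAAT, to TGACNNNGC (the core of sites bound by Nfe2l1 and Nfe2l2), to TTCNNNGAA, to the interferon response element of paired GAAA boxes or to the NF-kappaB consensus, each searched on both strands. Psma6 has a pair of annotated starts, both on the + strand, at chr12:55383972-55384221 and chr12:55398575-55398774 for the bases shown. Psma3 lies at chr12:70974373-70974620 (+), Psmb6 at chr11:70525107-70525356 (+), Psmd10 at chrX:140956729-140956906 (−) and Psmc1 at chr12:100109952-100110153 (+).
Psma6, upstream start: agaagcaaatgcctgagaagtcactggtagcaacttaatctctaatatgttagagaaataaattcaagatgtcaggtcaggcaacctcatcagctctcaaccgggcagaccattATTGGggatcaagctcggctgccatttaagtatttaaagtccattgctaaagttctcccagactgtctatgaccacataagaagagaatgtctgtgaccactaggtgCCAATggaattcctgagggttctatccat
Psma6, downstream start: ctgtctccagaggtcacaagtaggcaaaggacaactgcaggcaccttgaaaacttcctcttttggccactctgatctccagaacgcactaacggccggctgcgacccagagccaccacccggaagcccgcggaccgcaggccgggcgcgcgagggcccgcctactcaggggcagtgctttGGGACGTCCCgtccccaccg
Psma3: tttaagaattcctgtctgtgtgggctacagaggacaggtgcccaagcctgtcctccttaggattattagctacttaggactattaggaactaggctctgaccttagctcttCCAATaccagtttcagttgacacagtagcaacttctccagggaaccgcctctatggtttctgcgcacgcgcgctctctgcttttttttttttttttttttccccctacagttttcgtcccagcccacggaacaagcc
Psmb6: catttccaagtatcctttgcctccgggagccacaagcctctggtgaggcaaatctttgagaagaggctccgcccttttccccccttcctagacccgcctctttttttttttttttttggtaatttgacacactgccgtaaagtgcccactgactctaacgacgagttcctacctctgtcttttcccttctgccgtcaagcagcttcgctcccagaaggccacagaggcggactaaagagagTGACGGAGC
Psmd10: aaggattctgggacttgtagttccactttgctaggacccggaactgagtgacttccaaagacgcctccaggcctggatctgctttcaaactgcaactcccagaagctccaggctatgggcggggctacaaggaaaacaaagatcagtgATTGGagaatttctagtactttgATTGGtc
Psmc1: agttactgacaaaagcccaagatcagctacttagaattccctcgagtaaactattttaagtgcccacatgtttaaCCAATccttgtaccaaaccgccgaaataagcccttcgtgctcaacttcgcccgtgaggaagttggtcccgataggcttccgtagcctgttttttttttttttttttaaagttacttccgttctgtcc
The NF-kappaB consensus, searched after the responses were known, matched at the downstream start of Psma6, and the CCAAT box matched in Psma6, Psma3, Psmd10 and Psmc1 alike. The 28 genes have 30 windows of 250 bases, and CCAAT was found in 11 of them, or 36.67%, and in 33.85% of all 32851 windows of that length. TGACNNNGC was found in the windows of Psmb5, Psmb6, Psmc6, Psmd12 and Psmd9, 16.67% against 10.16% of all windows. The NF-kappaB consensus was found in those of Psma6, Psma7, Psmd11, Psmd12 and Psmd13, 16.67% against 7.25%. The paired GAAA boxes were found in those of Psmb3, Psmd4 and Psmd9, 10.0% against 2.98%, and TTCNNNGAA in 0 of the 30 against 7.02%. The NF-kappaB consensus reads the same on both strands in Psma6 and overlaps no other match there. These matches are a description of letters in the windows and not of binding.

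The catalytic beta subunits cut the substrate, and all 3 rose with LPS in WT as deposited, although Psmb5 changed sign after scaling to a sum (−0.10) and after quantile normalization (−0.35). Psmb6 was at 158, 164 and 154 FPKM in untreated WT, 527, 524 and 539 FPKM in LPS-treated WT, 251, 233 and 238 FPKM in untreated Pim1-/- and 746, 689.9 and 647 FPKM in LPS-treated Pim1-/- cells. Treated libraries of both genotypes lay above all untreated ones, and the Pim1-/- libraries above the WT libraries of the same treatment. The rise of this caspase-like subunit in WT (limma, log2 fold change 1.73, standard error 0.05, adjusted p = 1.2e-14) was the largest of the 3. Psmb7 was at 81.8, 80.3 and 75.6 FPKM in untreated WT, 191, 187 and 189.6 FPKM in LPS-treated WT, 148, 144 and 130.4 FPKM in untreated Pim1-/- and 252, 236 and 216 FPKM in LPS-treated Pim1-/- cells. Psmb7, the trypsin-like subunit, showed the same order of groups with a smaller rise (log2 fold change 1.25, standard error 0.06, adjusted p = 4.6e-12). Psmb5 was at 81.5, 84.6 and 78.8 FPKM in untreated WT, 134, 132 and 134 FPKM in LPS-treated WT, 132, 119 and 121 FPKM in untreated Pim1-/- and 162, 159.8 and 161 FPKM in LPS-treated Pim1-/- cells. In Psmb5, the chymotrypsin-like subunit that proteasome inhibitors such as bortezomib block, the rise was smallest (log2 fold change 0.70, standard error 0.04, adjusted p = 2.3e-10). Among the beta subunits without a catalytic site, Psmb4 had 1.06, Psmb2 0.94, Psmb3 0.61 and Psmb1 0.58 as log2 fold changes of LPS in WT as deposited, and of these Psmb1 and Psmb3 were below 0 after scaling to a sum and all 4 after quantile normalization.

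In the cap, 4 lid subunits passed 2-fold. Psmd11 (1.49), Psmd7 (1.49), Psmd6 (1.41) and Psmd14 (1.33), the deubiquitinase of the lid whose partner is Psmd7, did so in WT and rose under all 4 scalings. Psmd12 had 0.94 and also rose under all 4. Psmd13 (0.54), Psmd8 (0.44) and Psmd3 (0.39), which are scaffold subunits, rose less as deposited and were below 0 after scaling to a sum. None of the ATPases passed 2-fold under the study's rule, with log2 fold changes in WT from 0.13 in Psmc1 to 0.98 in Psmc4, and of these only Psmc4 and Psmc5 were called higher under all 4 scalings. Psmc1 was at 60.9, 64.0 and 62.5 FPKM in untreated and 69.4, 69.0 and 66.5 FPKM in LPS-treated WT cells, a difference of a few FPKM that still kept the groups apart. The large base subunits Psmd1 (0.51) and Psmd2 (0.48) and the ubiquitin receptor Psmd4 (0.69) were called as deposited and below 0 after scaling to a sum. The base chaperones split. Psmd10 was at 16.2, 16.7 and 14.9 FPKM in untreated WT, 59.1, 57.4 and 55.5 FPKM in LPS-treated WT, 17.4, 17.0 and 17.4 FPKM in untreated Pim1-/- and 68.7, 71.1 and 64.9 FPKM in LPS-treated Pim1-/- cells. Psmd10, also known as gankyrin, thus rose 3.60-fold in WT (log2 fold change 1.79, standard error 0.05, adjusted p = 5.4e-15). Psmd9 was at 10.3, 9.63 and 9.45 FPKM in untreated WT, 8.07, 8.87 and 9.21 FPKM in LPS-treated WT, 11.0, 10.5 and 11.0 FPKM in untreated Pim1-/- and 10.6, 10.9 and 11.1 FPKM in LPS-treated Pim1-/- cells. Psmd9 was the 1 gene that fell in WT (limma, log2 fold change −0.15, standard error 0.05, adjusted p = 0.014), a call that was lost without replicate 1 of untreated WT (adjusted p = 0.072) and without replicate 1 of LPS-treated WT cells (adjusted p = 0.088). Psmd5 rose by 0.45 as deposited, with −0.32 after scaling to a sum.

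In Pim1-/- cells, LPS raised 32 of the 34 genes as deposited, where 42.0% of all genes rose and 42.6% fell, and Psmd9 and Psmd3 were not called. After scaling to a sum 11 rose and 18 fell (median of all genes −0.62). After quantile normalization 9 rose and 21 fell (median of all genes −0.18). The 9 that rose under all 4 scalings were Psma2, Psma3, Psma4, Psma5, Psma6, Psmb6, Psmd7, Psmd11 and Psmd10. Under the study's rule 8 were higher and 0 lower, against 14.6% and 10.4% of all genes. The median log2 fold change was 0.54, or 0.55 above that of all genes, 0.50 above it after scaling to a sum and 0.024 above it after quantile normalization. The alpha ring again had the highest median of the roles, 1.13. Psmd10 rose most (log2 fold change 1.92, standard error 0.05, adjusted p = 3.1e-15), then Psma6 (log2 fold change 1.87, standard error 0.06, adjusted p = 2.3e-14) and Psmb6 (log2 fold change 1.53, standard error 0.05, adjusted p = 8.8e-14). Psmb7 rose by 0.73 (adjusted p = 6.2e-09) and Psmb5 by 0.38 (adjusted p = 6.8e-07) as deposited. After quantile normalization these were −0.11 and −0.46, and after scaling to a sum Psmb5 was at −0.28. Psmd9 was at 10.8 ± 0.262 and 10.9 ± 0.282 FPKM as deposited (SD, n = 3 each, 95% interval of the log2 fold change −0.11 to 0.11), but was called lower after scaling to a sum (−0.63) and after quantile normalization (−0.14). For 32 of the 34 genes the treated and untreated libraries did not overlap, against 83.8% of all genes.

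**Figure D2:**
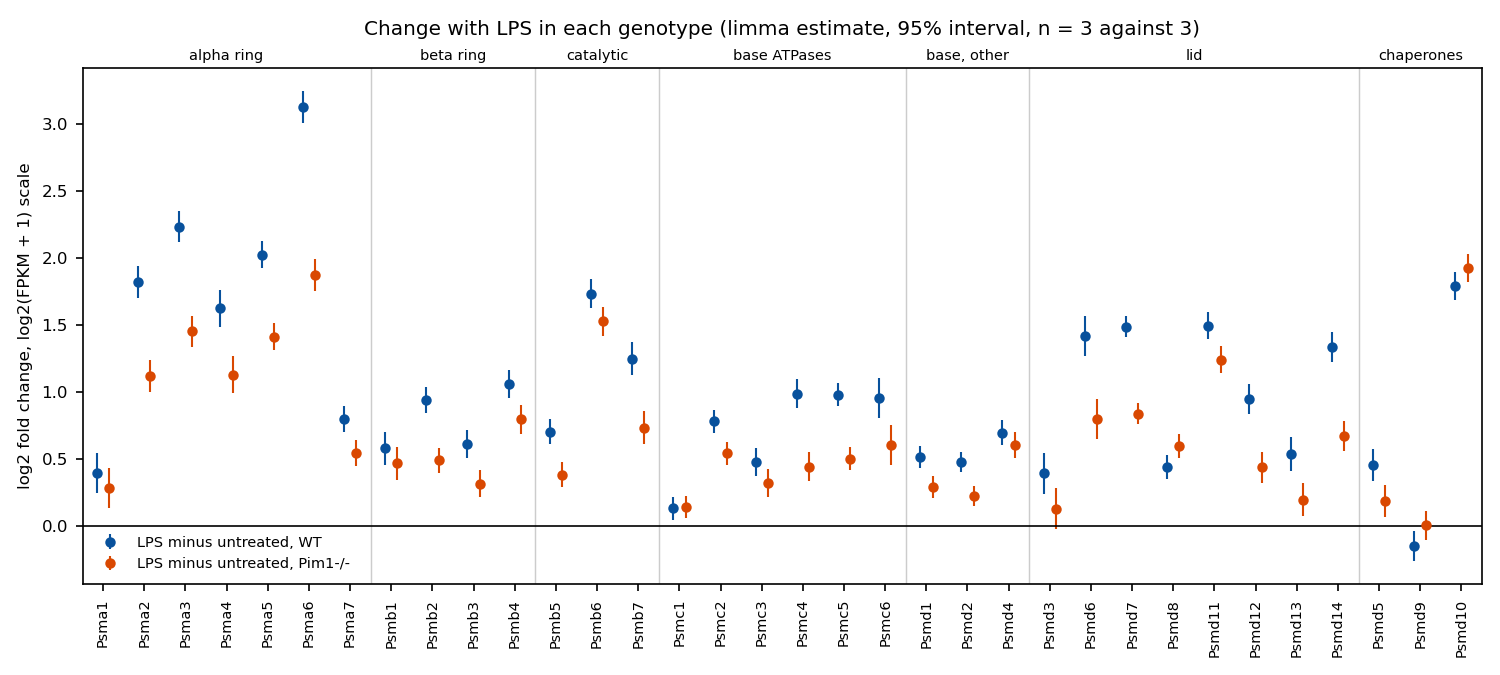
Change with LPS in WT and in Pim1-/- BMDMs for each of the 34 genes, as limma log2 fold changes of the values as deposited with 95% intervals (n = 3 against 3), grouped by role. In WT cells 33 points lie above 0 and the alpha ring reaches highest, with Psma6 at 3.12. With all libraries scaled to the same sum 18 genes rose and 14 fell, while the median of all genes was −0.71.

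**Figure D3:**
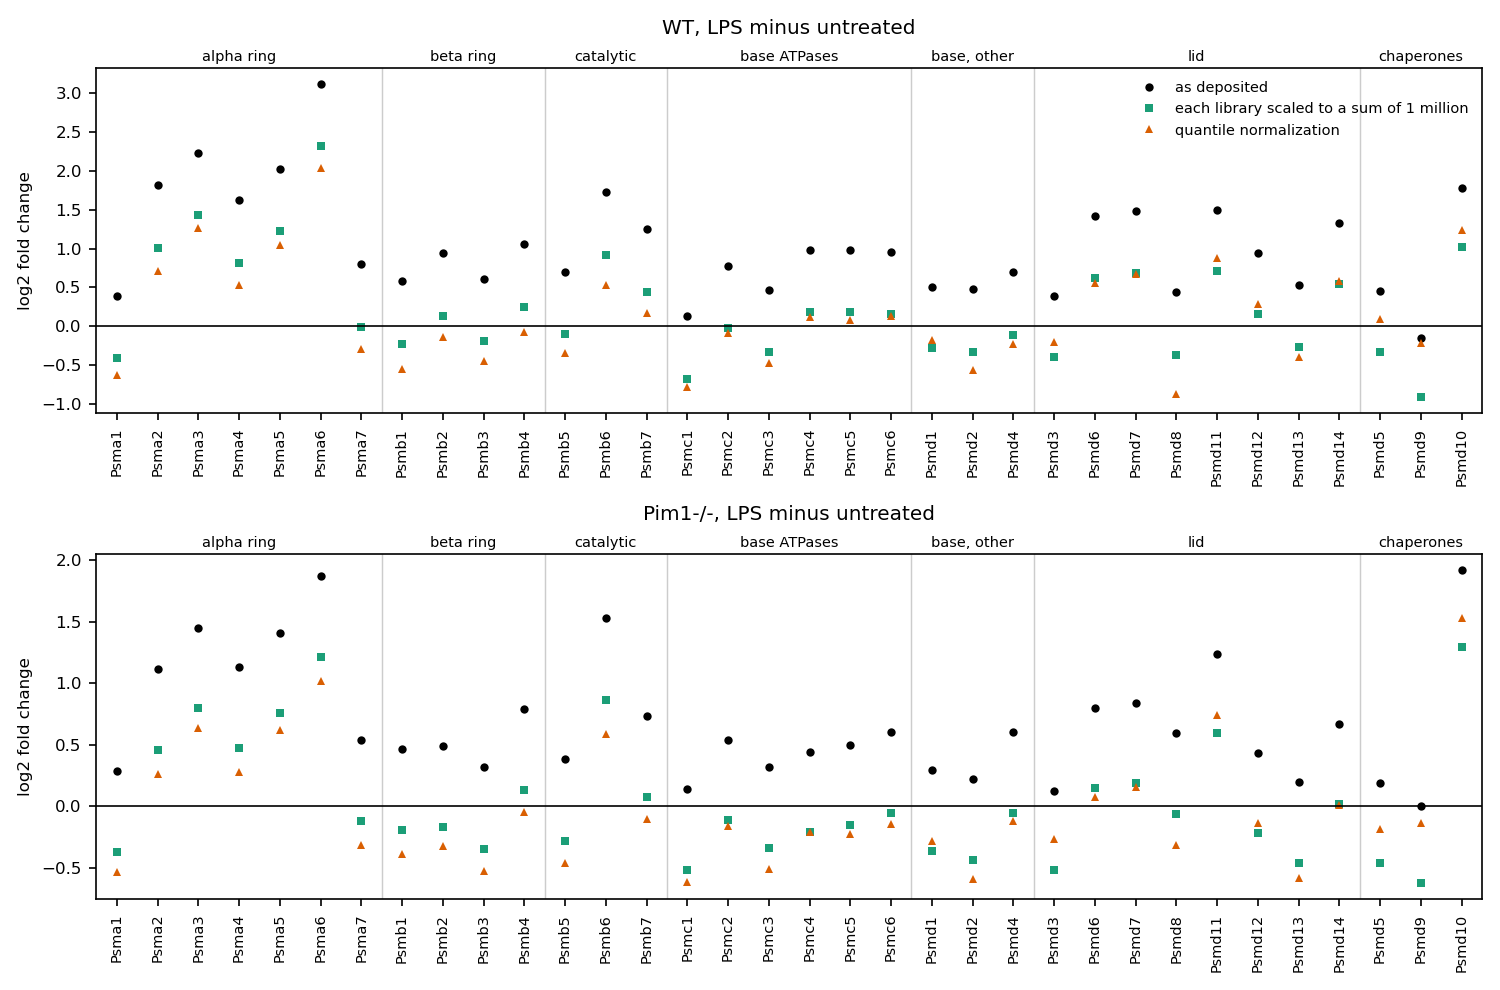
Log2 fold change with LPS of each of the 34 genes in WT cells (top) and Pim1-/- cells (bottom) with the values as deposited, with all libraries scaled to the same sum and with quantile normalization; the panels have different y axes. Psma2 to Psma6, Psmb6, Psmd6, Psmd7, Psmd11, Psmd14 and Psmd10 stay above 0 in both panels, while Psma1, Psmb5, Psmc1 and others cross 0. Psmd14 is barely above 0 in Pim1-/- cells after scaling to a sum (0.017) and after quantile normalization (0.0098).

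To compare the responses of the genotypes, the change with LPS in WT was subtracted from that in Pim1-/- cells in the same fit. A response is called smaller where this difference is below 0 at an FDR under 0.05. The response was called smaller in Pim1-/- cells for 26 of the 34 genes and larger for 1. Of all genes 33.3% were called smaller and 29.6% larger, and 15 of the 26 were also called smaller under all 4 scalings. These 15 were Psma2, Psma3, Psma4, Psma5 and Psma6, Psmb2 and Psmb7, Psmc4, Psmc5 and Psmc6, and Psmd6, Psmd7, Psmd12, Psmd13 and Psmd14. The median difference was −0.28 as deposited, −0.14 after scaling to a sum and −0.12 after quantile normalization. Relative to the median of all genes it was −0.28 as deposited and −0.16 after quantile normalization, and after scaling to a sum that median was itself at 0.12. By role, the median difference as deposited was most negative in the alpha ring, at −0.61, followed by the lid at −0.43. With the values of each library already given, Psma6 had the largest difference, with Pim1-/- cells higher than WT before and lower after LPS (log2 fold change −1.25, standard error 0.08, adjusted p = 3e-09), and it was the 1 gene past the study's rule, against 4.43% of all genes, while 0 passed it with a larger response, against 2.24%. Psma3 (log2 fold change −0.78, standard error 0.08, adjusted p = 3.9e-07) came next. Psma2 was at 102, 107 and 99.4 FPKM in untreated WT, 362, 378 and 356 FPKM in LPS-treated WT, 167, 163 and 147 FPKM in untreated Pim1-/- and 357, 359 and 319 FPKM in LPS-treated Pim1-/- cells (log2 fold change −0.70, standard error 0.08, adjusted p = 1.9e-06). The treated groups of the genotypes overlapped in Psma2, while the untreated ones did not. The catalytic subunits also had smaller log2 fold changes with LPS in Pim1-/- cells as deposited. The differences were −0.52 in Psmb7 (adjusted p = 5.2e-05), −0.32 in Psmb5 (adjusted p = 0.00031) and −0.21 in Psmb6 (adjusted p = 0.019). That of Psmb6 was −0.059 after scaling to a sum and 0.050 after quantile normalization. It was not called without replicate 1 of untreated Pim1-/- cells (adjusted p = 0.052). As deposited, all 3 were higher in Pim1-/- than in WT cells both before LPS (0.59 to 0.82) and after it (0.27 to 0.39).

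Psmd8 was at 231, 237 and 219 FPKM in untreated WT, 314, 309.7 and 309 FPKM in LPS-treated WT, 343, 339.7 and 334 FPKM in untreated Pim1-/- and 523, 531 and 485 FPKM in LPS-treated Pim1-/- cells. Psmd8 was the 1 gene with a larger response in Pim1-/- cells (limma, log2 fold change 0.16, standard error 0.06, adjusted p = 0.033), and its groups did not overlap. The call was lost when any of 8 of the 12 libraries was left out, at adjusted p = 0.051 to 0.085, and the size of the difference was then 0.13 to 0.16. The call of a smaller response for Psmd3 (−0.27) was lost without any of 5 libraries, at adjusted p = 0.053 to 0.085. The base chaperones Psmd10 (0.14, 95% interval −0.011 to 0.28) and Psmd9 (0.15, 95% interval −0.0069 to 0.31) were not called, nor were Psma1, Psmb1, Psmc1, Psmc3 and Psmd4. Across the 34 genes the changes with LPS in the 2 genotypes ran together, with Pearson's r of 0.921 and Spearman's rho of 0.919. Whether called or not, the estimated change was smaller in Pim1-/- cells for 30 of them. The points of this correlation are genes that share their libraries and are not independent. All 8 genes that passed 2-fold in Pim1-/- cells were among the 13 of WT cells.

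To see whether loss of Pim1 changed the subunits without stimulation, untreated Pim1-/- cells were compared with untreated WT cells. Of the 34 genes 31 were higher and 0 lower, where 32.7% of all genes were higher and 42.0% lower, and the same 31 were higher under all 4 scalings. The sizes were modest, with a median log2 fold change of 0.45 against −0.05 over all genes, and 0 passed the study's rule in either direction, which 4.40% of all genes did as higher and 3.37% as lower. The medians by role were 0.59 in the catalytic beta subunits, 0.57 in the alpha ring, 0.50 in the lid, 0.31 in the other beta subunits, 0.30 in the ATPases, 0.25 in the remaining base subunits and 0.14 in the base chaperones. Psmb7, whose values are given above, was higher by the most (log2 fold change 0.82, standard error 0.06, adjusted p = 4.1e-09). Psmb3, a beta subunit without a catalytic site, was at 74.5, 81.9 and 76.9 FPKM in WT and 145, 138 and 131 FPKM in Pim1-/- cells (log2 fold change 0.82, standard error 0.05, adjusted p = 5.8e-10). The ATPase Psmc6 was at 38.8, 40.2 and 35.5 FPKM in WT and 68.9, 67.4 and 59.2 FPKM in Pim1-/- cells (log2 fold change 0.76, standard error 0.07, adjusted p = 1.3e-07). In each of these the lowest Pim1-/- library lay well above the highest WT library. Psmb5 (adjusted p = 7.3e-09) and Psmb6 (adjusted p = 4e-08) were both higher by 0.59. The genes that were not called as deposited were Psmb2 (0.089, 95% interval −0.0078 to 0.19), Psmd10 (0.11, 95% interval 0.0065 to 0.21) and Psmd3 (−0.15, 95% interval −0.30 to 0.0071). Psmb2 and Psmd10 were called higher after scaling to a sum (0.15 and 0.17) and after quantile normalization (0.12 and 0.17). Psmd3 and Psmd10 were called with the replicate number as a block, which pairs the untreated libraries (adjusted p = 0.033 and 0.019). The call for Psmd9, higher by 0.14, was lost without replicate 1 or 3 of untreated Pim1-/- or replicate 2 or 3 of untreated WT cells, at adjusted p = 0.069 to 0.1. The 3 values of the genotypes did not overlap for all 34 genes, against 78.4% of all genes.

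After LPS the genotypes differed in both directions. As deposited 15 of the 34 genes were higher and 7 lower in Pim1-/- cells, where 35.7% of all genes were higher and 41.7% lower. The same 15 were higher under all 4 scalings, whereas of the 7 only Psma6 was lower under all of them. The counts became 26 higher and 4 lower after scaling to a sum, with the median of all genes at 0.13. After quantile normalization they were 27 and 1, with the median of all genes at 0.010. By the study's rule 0 were higher and 0 lower, against 3.51% and 5.15% of all genes, and the median was 0.079 as deposited, 0.28 after scaling to a sum and 0.31 after quantile normalization. Psmd8 was higher by the most (log2 fold change 0.72, standard error 0.04, adjusted p = 4.9e-10), which in its values above is a step from 309 to 314 FPKM in WT to 485 to 531 FPKM in Pim1-/- cells. Psma1, the alpha subunit that rose least with LPS, was at 105, 105 and 104 FPKM in WT and 159, 165 and 133 FPKM in Pim1-/- cells (log2 fold change 0.53, standard error 0.07, adjusted p = 5.3e-06), with 1 Pim1-/- library nearer to WT than the other 2. Psmb3 was at 120.1, 120.2 and 117 FPKM in WT against 176, 176 and 163 FPKM in Pim1-/- cells (log2 fold change 0.52, standard error 0.05, adjusted p = 9.6e-08), again with no overlap. The catalytic subunits were higher by 0.39 in Psmb6 (adjusted p = 4e-06), 0.30 in Psmb7 (adjusted p = 0.00017) and 0.27 in Psmb5 (adjusted p = 3.6e-05).

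In the other direction, Psma6 was lower in LPS-treated Pim1-/- than in LPS-treated WT cells (log2 fold change −0.68, standard error 0.06, adjusted p = 2e-08), although it had been higher in untreated Pim1-/- cells (0.57). Psmd3, a lid scaffold subunit, was at 39.4, 35.7 and 35.4 FPKM in WT and 28.0, 24.4 and 30.2 FPKM in Pim1-/- cells (log2 fold change −0.41, standard error 0.07, adjusted p = 8.1e-05), with no overlap. Psmb2, of the beta ring, was at 172, 158 and 167 FPKM in WT against 122, 127 and 136 FPKM in Pim1-/- cells (log2 fold change −0.36, standard error 0.05, adjusted p = 2.6e-06), also with no overlap. After quantile normalization the differences of Psmd3 and Psmb2 were −0.17 and −0.071 and neither was called. Psmd7 (−0.30), Psmc4 (−0.28), Psmc5 (−0.20) and Psma5 (−0.17) were lower as deposited, and none of these 4 was called after quantile normalization. With the replicate number as a block 18 were called higher and 8 lower, while not every pair of same-numbered libraries deviated together in this comparison. For 25 of the 34 genes the genotypes did not overlap after LPS, against 77.5% of all genes.

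**Figure D4:**
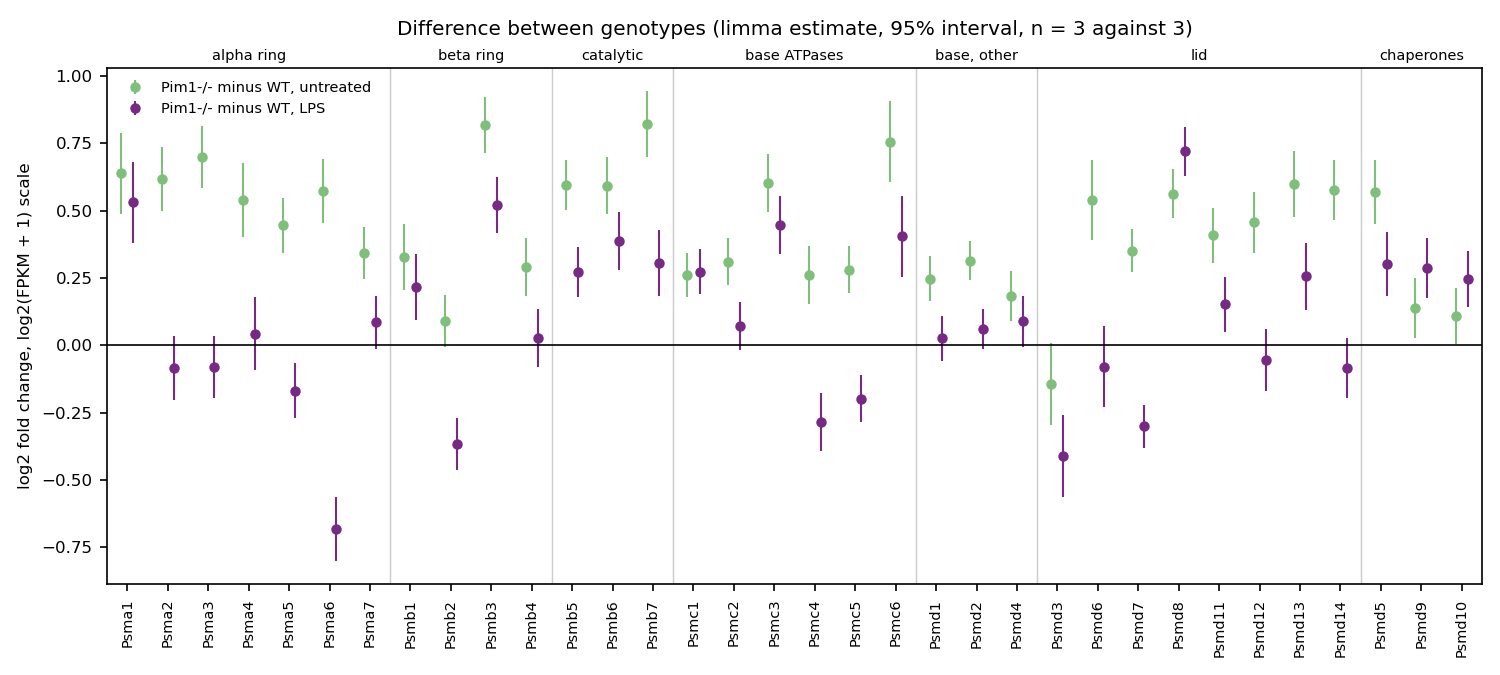
Difference between Pim1-/- and WT BMDMs for each of the 34 genes, untreated and after LPS, as limma log2 fold changes of the values as deposited with 95% intervals (n = 3 against 3), grouped by role. Untreated cells have 33 of 34 estimates above 0, and after LPS Psma6 is lowest at −0.68 and Psmd8 highest at 0.72, the former lower and the latter higher under all 4 scalings.

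Other genes moved with the genotype beside the proteasome. All 15 markers of the cell cycle were higher in untreated Pim1-/- cells under all 4 scalings (median log2 fold change 3.24), with a summed level of 920 to 1004 FPKM against 143 to 159 FPKM in WT, and 14 of 15 were after LPS (median 2.59), with 720 to 804 against 356 to 360 FPKM. Pcna alone averaged 434 and 110 FPKM in untreated Pim1-/- and WT cells, and 546 and 313 FPKM after LPS. The exception after LPS was Mki67, called lower by 0.12 as deposited, at 26.2 against 28.6 FPKM. Of the 10 macrophage markers 9 were lower in untreated and 10 in LPS-treated Pim1-/- cells, as deposited (9 and 8 under all 4 scalings), with medians of −0.89 and −0.94, and Lyz2 made up most of their sum. With LPS the cell cycle markers had a median of −0.67 in WT and −1.06 in Pim1-/- cells. In WT 3 were called higher and 11 lower as deposited, against 44.9% and 44.5% of all genes. Among the 3, Mki67 (2.92) and Pcna rose under all 4 scalings. Of the defining B cell markers Pax5 was at 0 in all groups, as were Cd3e, Cd3g, Cd8a and Ncr1 of T and NK cells. Other listed markers were not at 0 and differed in both directions. Untreated WT and Pim1-/- cells averaged 1.47 and 0.973 FPKM for Cd79b of B cells, and 0.0770 and 0.242 FPKM for Klrb1c of T and NK cells. The stromal marker Pdgfrb averaged 7.10 FPKM in LPS-treated WT and 2.16 FPKM in LPS-treated Pim1-/- cells. In bulk RNA, fewer cells of a type and less RNA per cell cannot be told apart. The part that these differences in markers have in the levels of the 34 genes was not tested, and the culture of a library cannot be told apart from its genotype.

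Each catalytic subunit has an inducible counterpart, and a common factor for all genes of a library does not change the ratio of the pair. Quantile normalization does change it, and moved the change with LPS of Psmb9 over Psmb6 from 1.51 to 1.88 in WT and from 1.30 to 1.61 in Pim1-/- cells on the log2 scale, with the direction of all 12 comparisons kept. Psmb8 over Psmb5 was 0.927 ± 0.0189 in untreated WT, 0.642 ± 0.0265 in untreated Pim1-/-, 4.25 ± 0.105 in LPS-treated WT and 2.21 ± 0.0322 in LPS-treated Pim1-/- cells (SD, n = 3 each). Psmb9 over Psmb6 was 0.183 ± 0.00742, 0.121 ± 0.00622, 0.522 ± 0.00274 and 0.296 ± 0.0125 in the same order (SD, n = 3 each). Psmb10 over Psmb7 was 0.686 ± 0.0545, 0.265 ± 0.0350, 2.80 ± 0.0609 and 1.73 ± 0.114 (SD, n = 3 each). All 3 ratios were higher in every LPS-treated library than in every untreated library of the same genotype, and lower in every Pim1-/- library than in every WT library of the same treatment. The differences between genotypes on the log2 scale were −0.53, −0.60 and −1.38 in untreated cells and −0.95, −0.82 and −0.69 after LPS. In all 12 comparisons the groups did not overlap, and each gave p = 0.1 in a two-sided exact permutation test, the smallest that 3 against 3 libraries allow, with 0.1 also after Benjamini-Hochberg adjustment over the 12. As deposited, Psmb8 averaged 75.6 FPKM in untreated WT and 79.5 FPKM in untreated Pim1-/- cells, and Psmb9 29.1 and 29.0 FPKM. Neither was called, while Psmb5 and Psmb6 were both higher by 0.59. Psmb10 was called lower, at 54.2 and 37.1 FPKM. After LPS all 3 inducible subunits were called lower in Pim1-/- cells as deposited, and Psmb8 and Psmb9 under all 4 scalings.

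**Figure D5:**
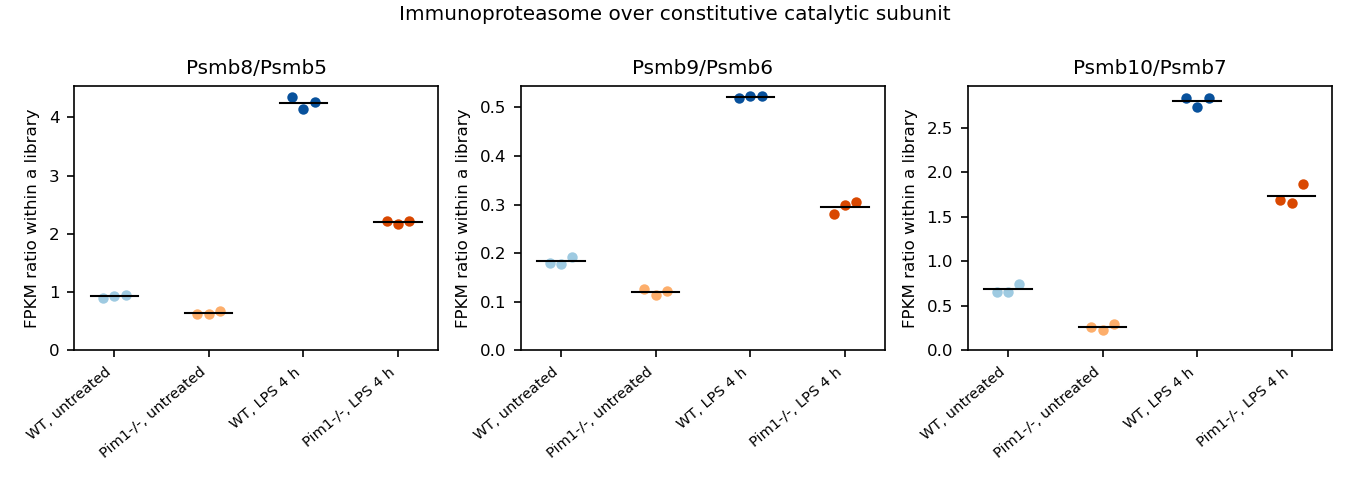
Ratio of FPKM of the inducible to the constitutive catalytic subunit within each library for Psmb8/Psmb5, Psmb9/Psmb6 and Psmb10/Psmb7; points are libraries and bars are group means, on linear axes that start at 0. In every panel the LPS-treated WT libraries are highest and the untreated Pim1-/- libraries lowest.

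Other genes of the pathway moved less uniformly. Of 32 listed genes 30 could be tested, and as deposited LPS raised 20 and lowered 7 in WT and raised 19 and lowered 5 in Pim1-/- cells, where of all genes 44.9% rose and 44.5% fell in WT and 42.0% rose and 42.6% fell in Pim1-/- cells, but after scaling to a sum it raised 9 and lowered 15 in WT and raised 10 and lowered 18 in Pim1-/- cells. Under all 4 scalings 8 rose and 6 fell in WT, and 9 rose and 4 fell in Pim1-/- cells. The 8 that rose in WT were the inducible catalytic subunits Psmb8, Psmb9 and Psmb10, the activators Psme1, Psme2 and Psme4, the ubiquitin ligase Ubr4 and the proteasome adaptor AI314180. In Pim1-/- cells these 8 also rose under all 4 scalings, together with Nfe2l1, the transcription factor that raises proteasome genes when proteasomes fail. Psme1 and Psme2 form the cap of the inducible proteasome. Psme2 was at 105 ± 4.14 and 1343 ± 33.2 FPKM in untreated and LPS-treated WT and at 111 ± 6.11 and 961 ± 1.40 FPKM in the same order in Pim1-/- cells (SD, n = 3 each), and Psme1 rose by 2.45 and 2.08 on the log2 scale. Pomp, a chaperone of core assembly, had 1.03 in WT and 0.63 in Pim1-/- cells as log2 fold changes of LPS as deposited. In the same order Nfe2l1 had 0.79 and 1.01. After quantile normalization all 5 tested core chaperones, Pomp among them, were called lower with LPS in both genotypes. After scaling to a sum none of them was called higher in Pim1-/- cells. Nfe2l1 was not called higher in WT under either of these scalings. Ddi2, the protease that activates Nfe2l1, fell under all 4 scalings, from 13.5 ± 1.19 to 2.80 ± 0.405 FPKM in WT and from 10.2 ± 0.859 to 2.71 ± 0.440 FPKM in Pim1-/- cells (SD, n = 3 each). Between genotypes 9 of the 30 were higher and 11 lower in untreated Pim1-/- cells as deposited (9 and 8 under all 4 scalings), and 10 were higher and 13 lower after LPS (10 and 11), which is near the shares over all genes of 32.7% and 42.0% untreated and 35.7% and 41.7% after LPS. The activators Psme1, Psme2, Psme3 and Psme4 and the inhibitor Psmf1 were lower in LPS-treated Pim1-/- cells under all 4 scalings, from −0.48 in Psme2 to −0.68 in Psme1. The difference in response was called negative for 15 of the 30 and positive for 5 as deposited (6 and 4 under all 4 scalings), against 33.3% and 29.6% of all genes.

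Some values may hold reads of other loci. GENCODE M21 lists near-identical copies, of at least 95% identity over 200 bases, for Psma3, Psma4, Psma5, Psmb3, Psmb5, Psmc1, Psmd2 and Psmd11, most of them processed pseudogenes, and how the authors' counting divided reads among such copies is not given in the sources used here, so the levels of these genes are uncertain. Of the copies with a row in the files, A730017L22Rik, a copy of Psmd11, reached 1.76 FPKM and Gm609, a copy of Psma3, 0.0728 FPKM. Psmb5 shares exon sequence on its own strand with Mir686, and Psmd1 with Gm21972. Exons of a gene on the other strand overlap those of Psma4, Psma5, Psmb7, Psmc3, Psmd1, Psmd3, Psmd13 and Psmd9, and the libraries were stranded but the counting setting is not given. The 34 genes do not form a cluster in the genome. Psma6 lies on chromosome 12 from 55384222 to 55418454 on the + strand, Psmb6 on chromosome 11 from 70525367 to 70527858 on the + strand and Psmd10 on chromosome X from 140948429 to 140956728 on the − strand (GRCm38). The 5 comparisons draw on the same 4 groups of libraries and are not independent of each other.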

How the data were processed

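RNA of the 12 BMDM libraries was made into stranded mRNA libraries. Per the submitters' processing notes, the authors used bcl2fastq 2.20.0.422, cutadapt 1.18, TopHat2 2.0.13 and Cuffdiff 2.2.1. The notes list build mm10, whereas the methods name a rat genome, rn5. Neither the annotation nor the library normalization is stated there. The deposited tables hold 1 value per gene and library with no unit written, read here as FPKM from the tool and the values. In these, 72.0% of 1036 low values were whole multiples of 1 fragment to within 0.05 fragment. The value of 1 fragment was chosen in each library to fit these same low values. The 10% that chance gives holds only for a value fixed in advance, so it is no test of the 72.0%. The deposited values are not counts, so no count test was used.

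Groups came from the labels. A gene was tested where 3 or more libraries had 1 FPKM or more (10581 of 23997). Log2(FPKM + 1) values of all 12 libraries were fitted with 4 group means in limma 3.58.1 (R 4.3.3, mean-variance trend, no block, Benjamini-Hochberg adjustment), and calls were made at an FDR under 0.05. The study's rule was more than 2-fold, p under 0.05 and FDR under 0.1. Since the change is on this scale, it understates that of low genes. Ratios within a library were tested with two-sided exact permutation tests. Figures were drawn with matplotlib 3.10.9, and tables were handled with pandas 2.3.3 and numpy 2.4.6 under Python 3.11.15. On simulated data for LPS in WT (9980 genes), the fit called 85 of 100 genes changed 1.25-fold, 100 of 100 changed 2-fold and 8 unchanged genes. The simulated libraries had independent noise, few changed genes and no difference in scaling. They therefore do not test how scaling, or libraries that deviate together, affect the calls.

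Full statistics are given for the 3 called genes with the largest change in each direction of each comparison and for Psmb5, Psmb6 and Psmb7. Pathway genes are named where they pass the study's rule or are Psmb8, Psmb9, Psmb10, Psme1, Psme2, Pomp or Nfe2l1. Others were named after their values were seen. The 34 genes, the lists of pathway and marker genes and these rules were chosen with earlier results of these data known. Alternatives were another pseudocount, no filter and a stricter one, 3 other scalings, only the groups compared, no trend, the replicate number as a block and each library left out. The search for the NF-kappaB consensus was added after the data were seen. Paaf1 had no row by that symbol and Psmb11 did not pass the filter. Promoter sequences are from RefSeq (GRCm38.p6), and exons and copies from GENCODE M21.

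Same-numbered libraries deviated together from their group means, over 3646 genes with at least 10 FPKM in every library, between the genotypes when untreated (r of 0.33, 0.37 and 0.46) and between untreated and LPS-treated Pim1-/- cells (0.43, 0.54 and 0.68). Not every pair did after LPS between the genotypes (0.020, 0.37 and 0.19) or in WT with LPS (−0.10, 0.14 and 0.19).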

Additional observations from a re-analysis of the deposited data

Results flagged for a closer look

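The test of the difference between the genotypes' responses to LPS (limma, adjusted over all genes) called 6 of the genes with full statistics smaller and 1 larger in Pim1-/- than in WT cells. The differences in log2 fold change were −1.25 in Psma6, −0.78 in Psma3, −0.70 in Psma2, −0.52 in Psmb7, −0.32 in Psmb5 and −0.21 in Psmb6, and 0.16 in Psmd8. Psma6, Psma3, Psma2 and Psmb7 were called smaller and Psmd8 larger under all 4 scalings. Psmb5 had −0.11 after quantile normalization (limma, adjusted p = 0.076) and was not called there. The median difference in response of the 15 cell cycle markers was −0.61 as deposited, and its part in these values was not tested.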

How the results depend on the processing

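Of the results for single named genes under the alternatives, 663 kept their direction and side of the threshold, 17 lost the call and 6 turned. Most of these genes were named because their called change was among the largest. Many of the alternatives leave out 1 library, in part one outside the groups compared, so the tally leans towards results that stay. The scalings moved the most. With quantile normalization LPS gave −0.35 for Psmb5 in WT, −0.46 for Psmb5 and −0.11 for Psmb7 in Pim1-/- cells, and 0.050 for the difference in response of Psmb6. With libraries scaled to a common sum, Psmb5 had −0.10 in WT and −0.28 in Pim1-/- cells. For the 34 genes, quantile normalization gave 15 higher and 16 lower with LPS in WT (median 0.0063, or 0.19 above that of all genes), 9 and 21 in Pim1-/- cells (median −0.15, 0.024 above) and 4 and 16 for the difference in response (median −0.12, relative −0.16). Between genotypes it gave a median of 0.51 untreated (relative 0.56) and 27 higher and 1 lower after LPS (median 0.31, relative 0.30). Scaling to a sum gave 18 and 14 with LPS in WT (median 0.14, relative 0.86) and 11 and 18 in Pim1-/- cells (median −0.12, relative 0.50). It gave 4 and 17 for the difference (median −0.14, that of all genes 0.12). Between genotypes it gave a median of 0.51 untreated and 26 and 4 after LPS (median 0.28, that of all genes 0.13). Median-ratio scaling moved no count. The cause of these shifts was not tested.

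The study's rule of more than 2-fold left 13 higher and 0 lower with LPS in WT, 8 higher in Pim1-/- cells, 0 higher and 1 lower for the difference in response, 0 higher between untreated genotypes, and 0 higher and 0 lower after LPS. The filter of 5 FPKM gave medians of 0.77 in WT and 0.44 in Pim1-/- cells above that of all genes for LPS. With only the untreated groups in the fit 1 gene was lower in Pim1-/- cells, and without a trend 0 had a larger response. With the replicate number as a block, 1 was lower between untreated genotypes and 2 had a larger response, and no call was lost in any comparison. With each library left out in turn, the genes lower in untreated Pim1-/- cells numbered 0 to 1, those lower with LPS in WT 0 to 1 and those with a larger response 0 to 2. No fit with only the groups compared applies to the difference in response, which uses all 4. The lowest value rests on about 190 fragments per kilobase, so counting error is small, while 3 libraries a group limit what smaller differences can be called.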

Other observations

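Among the pathway genes outside the rules for naming, chosen after their values were seen, several that handle assembly and substrates stood out. Uchl5, a deubiquitinase bound to the cap, was at 11.0 ± 0.807 FPKM in untreated WT and 21.7 ± 0.781 FPKM in untreated Pim1-/- cells (SD, n = 3 each, log2 fold change 0.93), and had 0.58 after LPS. The paired core chaperones Psmg1 and Psmg2 were higher in Pim1-/- cells by 0.63 and 0.79 when untreated and by 0.87 and 0.92 after LPS. All 3 genes were higher under all 4 scalings with and without LPS.

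The 4 listed regulators of proteasome gene transcription all had a positive difference in response, the change with LPS in Pim1-/- minus that in WT cells, as deposited, where most of the 34 subunits had a negative one. All 4 were called, against 29.6% of all genes called with a positive difference. A link between the regulators and the subunits was not tested. The difference was 0.80 in Ngly1, which strips sugars from Nfe2l1 before it can act, 0.70 in Nfe2l2, the factor of the antioxidant response, 0.22 in Nfe2l1 and 0.34 in Ddi2. Nfe2l1, Nfe2l2 and Ngly1 were called under all 4 scalings. The sign does not stand for a stronger response in each, since Ddi2 fell with LPS by 1.93 in WT and by 1.60 in Pim1-/- cells, and Ngly1 fell by 0.74 in WT and had 0.062 in Pim1-/- cells. Nfe2l2 was at 155 ± 4.04 FPKM in untreated WT and 163 ± 7.90 FPKM in LPS-treated WT cells, whereas in Pim1-/- cells it went from 108 ± 2.61 to 185 ± 3.74 FPKM with LPS (SD, n = 3 each).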
